A study of Mus musculus with 4 samples.

Results

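The BCL2 family genes measured here are 10 genes that either keep a cell alive or commit it to death at the mitochondrion: Bcl2, Bcl2l1, Mcl1, Bax, Bak1, Bid, Bad, Bik, Bcl2l11 and Bmf. They were found by name, as every probe outside the array's controls whose gene name was one of these symbols or a former one (Biklk for Bik, Bim for Bcl2l11). This gave 14 of 41174 probes, with 1 probe for 6 genes and 2 probes for 4 genes. None of the 14 was saturated or flagged as an outlier, and 13 passed the filter on dim probes. The samples were early mammary tumours (stage T1) of female FVB/N mice aged 26 weeks. Tumours of mice with MMTV-cdc25a in addition to MMTV-neu, here Cdc25a;neu, were set against tumours of mice with only MMTV-neu, here neu, so every tumour carried neu. The MMTV promoter drives a transgene mainly in mammary epithelium, whereas the RNA came from tumour tissue of 1 mouse per sample. A tumour of each genotype was placed on 1 array in different dyes and again on another array with the dyes exchanged, for 2 pairs of mice and 4 arrays.

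Cells die by the mitochondrial route when BAX or BAK1 forms pores in the outer mitochondrial membrane and cytochrome c leaves the organelle. BCL2, BCL2L1 and MCL1 hold these pore-forming proteins back. The BH3-only proteins BID, BAD, BIK, BCL2L11 and BMF carry stress or growth-factor signals to both groups, and many of them are controlled after transcription, by phosphorylation, cleavage or degradation, which an RNA measurement does not see. In the mammary gland the family is known for its part in the loss of epithelium after weaning. Cdc25a encodes a phosphatase that activates cyclin-dependent kinases, and neu is the rodent Erbb2 receptor.

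None of the 10 genes passed the test of Cdc25a;neu against neu. Bak1 had the lowest mean log2 ratio, -0.33 ± 0.04 (SD, n = 2 pairs), which is a fold of 0.796, and Mcl1 followed at -0.25 ± 0.11, a fold of 0.844. These were also the members that were lower in Cdc25a;neu on all 4 arrays. The other 8 genes had mean log2 ratios between -0.11 and 0.09. For Bcl2l1 this is the probe of the name rule. A brighter probe outside the rule, described as Bcl-X and chosen after its values were seen, had -0.32 ± 0.06. A further one, described as Bcl-x-beta, had -0.07 ± 0.01. The 95% intervals of all 10 genes lay within 0.5 of 0 on the log2 scale with the processing described here. That bound depends on the processing: with the scanner's own log ratio 4 of the 10 intervals lay within 0.5 of 0, and that of Bcl2l11, a dim probe, ran from -1.12 to 0.26.

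A log2 ratio here is log2 of the Cdc25a;neu signal over the neu signal of the same array, after background correction and dye normalization. The dye-swapped arrays of a pair share their RNA, so they were averaged first and counted as 1 pair, and a mean below is the mean of the 2 pairs. The test was limma's moderated test of that mean against 0, with Benjamini-Hochberg adjustment over all 37174 tested probes. It called 0 of 37174 probes in all (0%), with a lowest adjusted p of 0.245, and 3505 probes (9.43%) had an unadjusted p under 0.05. With each array centred on its median in place of loess it called 1109, none of them a member's. Of the 13 member probes, 0 passed and 2 had an unadjusted p under 0.05. With 2 pairs, a difference has to be large beside the spread between pairs to pass. Apart from the sex, strain, age, tumour stage and transgenes given above, the labels name the mice by number only. The spread between pairs is therefore that between 2 separate comparisons of single tumours.

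The arrays held 41534 spots each, of which 78.5% to 92.2% (Cy3) and 82.7% to 87.9% (Cy5) were well above background. Over all probes, the log2 ratios of the arrays of a pair correlated at 0.643 in pair 1 and 0.755 in pair 2, against 0.196 to 0.364 between arrays of different pairs. The probe for Cdc25a itself had a mean log2 ratio of 0.05 ± 0.06. The sources used here do not say whether the transgene's RNA holds that probe's sequence, so the probe does not check the labels, and the direction of every ratio rests on them. The Erbb2 probe, for the mouse gene of the receptor, was higher in Cdc25a;neu on all 4 arrays, at 0.42, 0.48, 0.76 and 0.93, with a mean of 0.65 ± 0.28 (limma adjusted p = 0.504). Whether that probe also detects the neu transgene's RNA is likewise unknown here, and the part of this difference in the members' values was not tested. Of 8 listed luminal epithelial markers 6 were measured, and 5 of these were well above background in both channels of all 4 arrays. The log2 of their summed signals, in which the brightest markers weigh most, was 14.96 and 15.14 in Cdc25a;neu and 15.08 and 15.23 in neu. The log2 of the summed signals of 8 fat cell markers was 11.07 and 11.47 in Cdc25a;neu and 12.63 and 13.86 in neu. Of the 8, 5 were lower on all 4 arrays, and the median log2 ratio was -1.21. In both channels of all 4 arrays 7 of the 8 were well above background. One of the 8, Cd36, was higher on all 4 arrays, with a mean log2 ratio of 0.72 ± 0.22 (limma adjusted p = 0.469). For 5 macrophage markers the log2 of the summed signals was 12.84 and 15.08 in Cdc25a;neu and 13.25 and 13.22 in neu. For 9 lymphocyte markers it was 11.26 and 11.22 against 11.23 and 11.16.

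The stretches of 250 bases before the transcription starts of Bak1 and Mcl1 are shown, since these were the members lower on all 4 arrays. They are RefSeq sequences of build GRCm38.p6, written 5′ to 3′ on the gene's own strand, from chr17:27028628-27028877 (minus strand) for Bak1 and chr3:95658471-95658720 (plus strand) for Mcl1. Capitals mark a GC box, the letters GGGCGG or CCGCCC.
Bak1 promoter: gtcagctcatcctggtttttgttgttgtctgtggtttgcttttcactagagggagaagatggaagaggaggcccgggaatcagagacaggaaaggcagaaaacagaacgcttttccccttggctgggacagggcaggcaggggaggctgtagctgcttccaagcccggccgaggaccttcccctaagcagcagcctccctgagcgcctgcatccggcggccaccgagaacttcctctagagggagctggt
Mcl1 promoter: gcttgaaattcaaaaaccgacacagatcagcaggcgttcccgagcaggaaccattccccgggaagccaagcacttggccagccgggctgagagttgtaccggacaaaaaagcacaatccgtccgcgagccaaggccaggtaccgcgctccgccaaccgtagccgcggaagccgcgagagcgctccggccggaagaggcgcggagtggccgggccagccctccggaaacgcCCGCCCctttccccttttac
The Mcl1 stretch is 64.4% G and C and holds 1 GC box, close to the transcription start. The Bak1 stretch is 58.4% G and C and holds none. Both strands were searched for 4 motifs: the GC box, the CCAAT box (CCAAT or ATTGG), an E2F site (TTTCCCGC or GCGGGAAA) and a TATA box (TATAAA or TTTATA). Counted here were 15 promoters of 9 members. Any entry with a member's name on 1 chromosome where no member lies was left out of these, but not of all promoters. A GC box stood in 7 of the 15 (46.7%), against 32.7% of all 32851 promoters of the same length. A CCAAT box stood in 5 of the 15 (33.3%), against 33.8%. The E2F letters stood in 0 of the 15, against 0.895% of all, and the TATA letters in 0, against 12.4%. These matches describe letters and no binding was measured here.

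**Figure D1:**
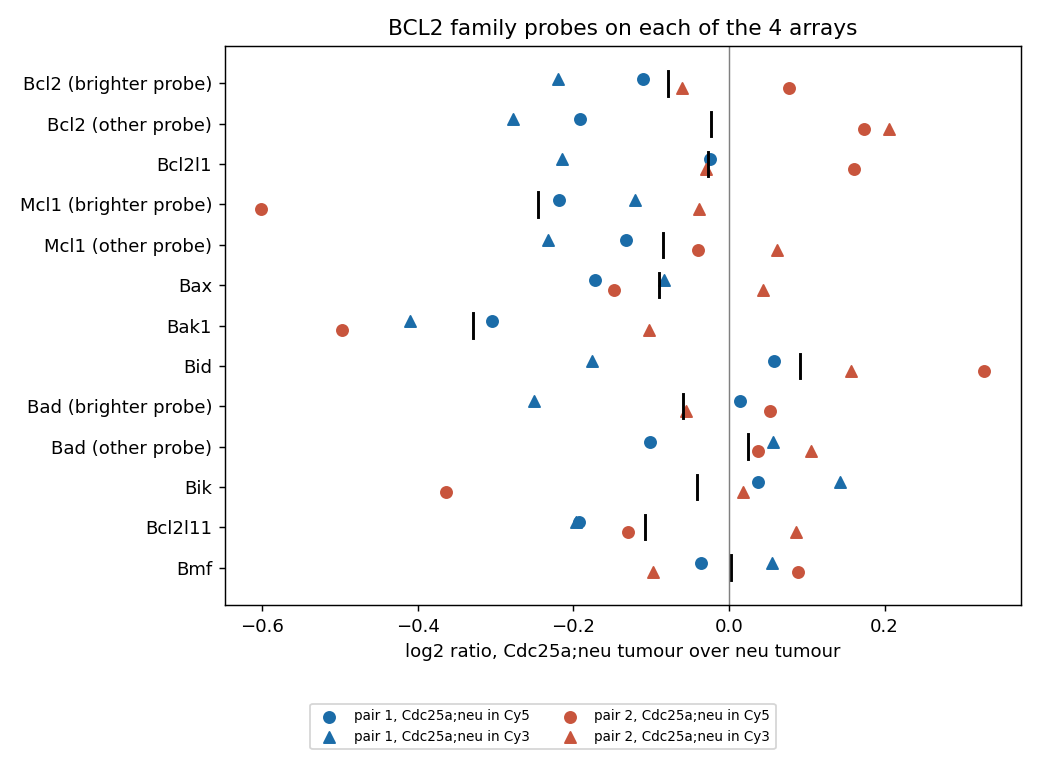
Log2 ratio of Cdc25a;neu over neu (x axis) for each member probe on each of the 4 arrays, with the mean of the 2 pairs marked. Bak1 and the Mcl1 probe used for the gene lie below 0 on all 4 arrays, and the other kept probes lie on both sides of 0.

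Among the survival genes, Bcl2, the founding member that holds BAX and BAK1 in check, showed little difference. Its log2 ratio was -0.11 and -0.22 on the arrays of pair 1, with Cdc25a;neu in Cy5 and then in Cy3, and 0.077 and -0.06 on those of pair 2. The pair values were -0.17 and 0.0082, with a mean of -0.08 ± 0.12 (limma adjusted p = 0.749). The log2 normalized signal of the tumours was 9.74 and 9.62 in Cdc25a;neu and 9.91 and 9.61 in neu, so the genotypes overlapped. A second probe named Bcl2 disagreed between the pairs, with log2 ratios of -0.19 and -0.28 in pair 1 and 0.17 and 0.21 in pair 2. That gap was larger than the difference between dyes within either pair, and the mean was -0.02 ± 0.30 (limma adjusted p = 0.969). Of the 13 member probes, 4 had a gap between pairs larger than the dye gap of both pairs.

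Bcl2l1 encodes BCL-XL, the survival protein known to guard epithelial cells. Its probe had log2 ratios of -0.025 and -0.21 on the arrays of pair 1 and 0.16 and -0.030 on those of pair 2, with a mean of -0.03 ± 0.13 (limma adjusted p = 0.922). The tumour signals were 7.31 and 7.38 in Cdc25a;neu and 7.43 and 7.31 in neu, so the genotypes overlapped. The array also carries a probe outside the name rule whose description is Bcl-X; it was chosen after its values were seen. It was lower on all 4 arrays, at -0.23, -0.34, -0.24 and -0.49, with a mean of -0.32 ± 0.06 (limma adjusted p = 0.479). Of all probes with 4 values, 12.6% were lower on all 4 arrays. A further such probe, described as Bcl-x-beta, gave a mean of -0.07 ± 0.01. These 3 probes did not give 1 value for the gene, and the transcripts that each detects are not stated in the sources used here.

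Mcl1 encodes a short-lived survival protein. Its log2 ratio was -0.22 and -0.12 on the arrays of pair 1 and -0.60 and -0.039 on those of pair 2, so all 4 were below 0 but the pair 2 arrays were far apart. The mean was -0.25 ± 0.11, with a 95% interval of -0.46 to -0.03 before adjustment and a limma adjusted p of 0.519. Without the pair 2 array that has Cdc25a;neu in Cy5 the mean was -0.10, with an interval of -0.31 to 0.10. With the scanner's log ratio the interval was -0.57 to 0.07. Both of these include 0, whereas the interval without background correction, -0.45 to -0.04, does not. The tumour signals were 9.82 and 10.02 in Cdc25a;neu and 9.99 and 10.34 in neu, so the genotypes overlapped although Cdc25a;neu was lower within each pair. A second Mcl1 probe gave -0.13 and -0.23 in pair 1, -0.039 and 0.062 in pair 2 and a mean of -0.09 ± 0.14, and was not lower on all 4 arrays.

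Bak1, a pore-forming gene, was the member with the lowest mean log2 ratio. It had log2 ratios of -0.30 and -0.41 on the arrays of pair 1 and -0.50 and -0.10 on those of pair 2. The pair values were -0.36 and -0.30, although the pair 2 arrays were far apart. The mean of -0.33 ± 0.04 had a 95% interval of -0.49 to -0.17 before adjustment, and the limma adjusted p was 0.469. Without the pair 2 array that has Cdc25a;neu in Cy5 the mean was -0.23, with an interval of -0.52 to 0.06. With median centring in place of loess the mean was -0.25, with an interval of -0.55 to 0.05. Both of these intervals include 0. With median centring the intervals of all members were nearly equally wide. The width of that interval therefore says little of the spread between the pairs for Bak1. The tumour signals were 7.58 and 7.89 in Cdc25a;neu and 7.93 and 8.19 in neu, so both Cdc25a;neu tumours lay below both neu tumours, though the gap between the nearest was 0.0405. Among all tested probes, 6.67% had a mean log2 ratio at least this far from 0. In bulk tissue, fewer cells of a type and less RNA per cell cannot be told apart. The part of the lower fat cell marker level in the Bak1 and Mcl1 values was not tested.

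Bax encodes the other pore-forming protein. The arrays gave log2 ratios of -0.17 and -0.083 in pair 1 and -0.15 and 0.043 in pair 2, giving a mean of -0.09 ± 0.05 (limma adjusted p = 0.646). Without the pair 2 array that has Cdc25a;neu in Cy5 the Bax mean was -0.042, and with median centring it was -0.030. The tumour signals were 8.23 and 8.02 in Cdc25a;neu and 8.36 and 8.07 in neu, and the genotypes overlapped. The pair values of Bax were -0.13 and -0.05, and its pair 2 arrays had opposite signs. Both pore-forming genes thus had pair values below 0, and neither gene passed the test. The share of all tested probes below 0 in both pairs was not counted.

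The BH3-only genes held no member lower or higher on all 4 arrays. Bid encodes the protein that caspase-8 cleaves to link death receptors to mitochondria, and it had the highest mean of the 10 genes. Bid had log2 ratios of 0.058 and -0.18 in pair 1 and 0.33 and 0.16 in pair 2, giving a mean of 0.09 ± 0.21 (limma adjusted p = 0.797). Bcl2l11 encodes BIM, which binds all the survival proteins and is restrained by growth-factor signalling. The ratios on the log2 scale were -0.19 and -0.20 in pair 1 and -0.13 and 0.086 in pair 2, giving a mean of -0.11 ± 0.12 (limma adjusted p = 0.676). It was dim, well above background in 3 of the 4 channels of each genotype, and its mean moved with the processing. It was -0.43 with the scanner's log ratio, -0.37 in the authors' deposited table and -0.054 without the pair 2 array that has Cdc25a;neu in Cy5.

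Bmf encodes a BH3-only protein known for its part in death after loss of attachment, and it was the member nearest to 0. The log2 ratios were -0.036 and 0.055 in pair 1 and 0.089 and -0.098 in pair 2, so each pair's arrays had opposite signs, and the 95% interval of the mean was -0.15 to 0.15. Its tumour signals, 9.29 and 9.05 in Cdc25a;neu and 9.28 and 9.06 in neu, differed between pairs far more than within them. A second Bmf probe was not well above background in any channel and was not tested.

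Bad encodes a BH3-only protein that AKT and RSK kinases are known to inactivate by phosphorylation. Its brighter probe gave log2 ratios of 0.015 and -0.25 in pair 1 and 0.053 and -0.055 in pair 2, giving a mean of -0.06 ± 0.08 (limma adjusted p = 0.767), and its other probe gave a mean of 0.02 ± 0.07. The brighter probe, also dim, gave -0.24 with the scanner's log ratio and -0.19 in the authors' deposited table. Bik encodes a BH3-only protein of the endoplasmic reticulum. Its log2 ratio was 0.038 and 0.14 in pair 1 and -0.36 and 0.018 in pair 2, giving a mean of -0.04 ± 0.19 (limma adjusted p = 0.904). Its tumour signals were 7.85 and 7.27 in Cdc25a;neu and 7.76 and 7.45 in neu, so the pairs lay further apart than the genotypes.

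**Figure D2:**
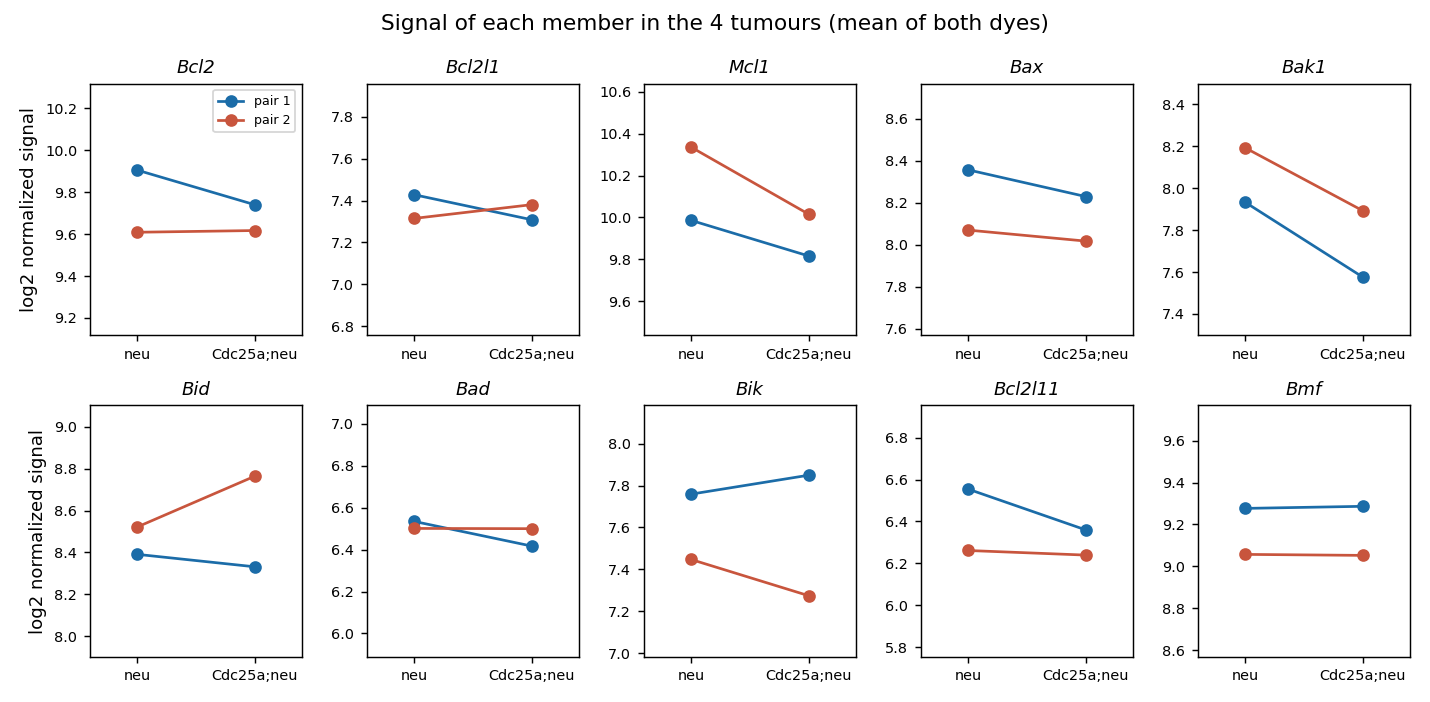
Log2 normalized signal (y axis) of each member gene in the 4 tumours, each the mean of both dyes, with lines joining the tumours of a pair. For Bak1 both Cdc25a;neu tumours, at 7.58 and 7.89, lie below both neu tumours, at 7.93 and 8.19; levels of different genes come from different probes and are not comparable.

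Counted together, the members stood close to the background of the array. Of the 13 tested probes, 2 were lower on all 4 arrays (15.4%), against 12.6% of all probes with 4 values, and 0 were higher on all 4, against 14.2%. Both Cdc25a;neu tumours lay below both neu tumours for 2 of 13 probes, Bak1 and the brighter Bad probe, whose nearest tumours differed by 0.0012, against 11.4% of all tested probes. Both lay above for 0 of 13, against 8.46%. The median log2 ratio of the 10 genes was -0.07, with -0.12 in pair 1 and -0.01 in pair 2, against 0.0020, 0.0037 and 0.0031 for all tested probes. In pair 1, 8 of the 10 genes were below 0, and in pair 2, 7 were, with 5 below 0 in both pairs and 0 above 0 in both. The shares of all tested probes that did the same were not counted, so these counts have no background beside them. By role, the median log2 ratio was -0.08 for the 3 survival genes, -0.21 for the 2 pore-forming genes and -0.04 for the 5 BH3-only genes. Markers of several cell types differed between the pairs. The median log2 ratio was -0.38 in pair 1 and 0.52 in pair 2 for the macrophage markers, -0.42 and 0.61 for 4 fibroblast markers, and -0.09 and 0.49 for 2 basal markers. Not every marker followed its median. Of the fibroblast markers, Col1a1 and Col1a2 changed sign between the pairs. Dcn and Pdgfra were lower on all 4 arrays, with means of -0.83 and -0.29. Fcgr1, a macrophage marker, was also lower on all 4 arrays. The log2 of the summed signals of 3 skeletal muscle markers was 11.63 in the neu tumour of pair 2 and 9.50 to 9.74 in the other tumours. The part of these markers in the members' pair gaps was not tested.

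**Figure D3:**
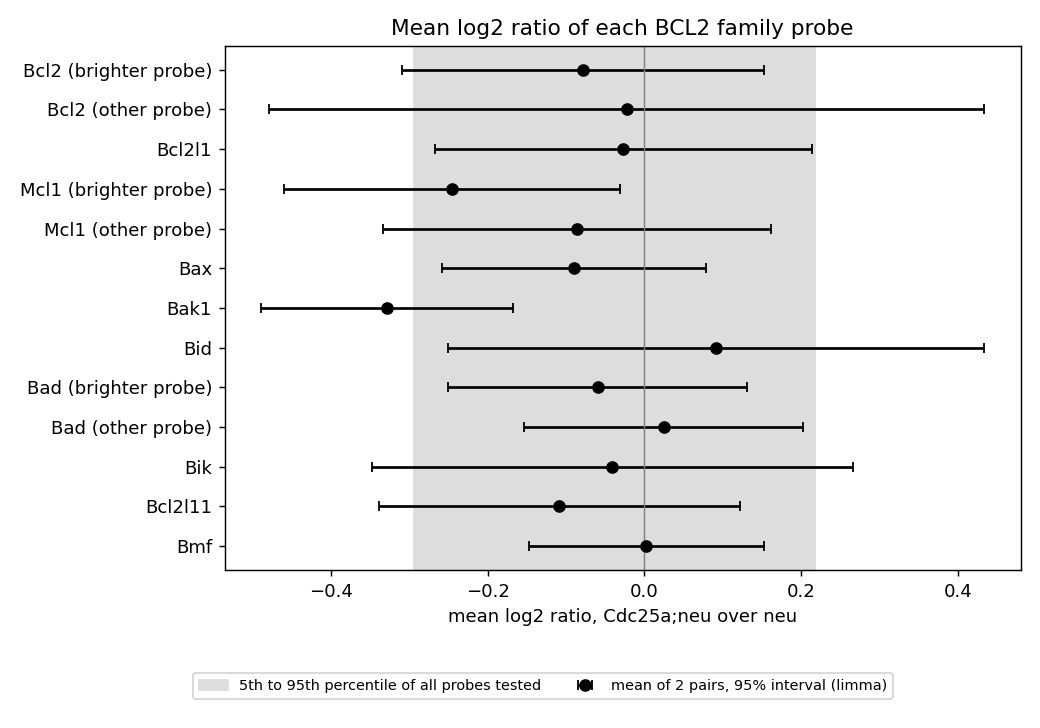
Mean log2 ratio of Cdc25a;neu over neu (x axis) for the 13 tested probes of the 10 genes, ordered by role. Points are means of the 2 pairs and bars are limma's 95% intervals before adjustment. The grey band, from -0.29 to 0.22, holds most of all tested probes. With this processing all intervals lie within 0.5 of 0, and those of Bak1 and the brighter Mcl1 probe lie below 0.

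The balance between death and survival genes was described as the difference of their log2 ratios within each array, where a value above 0 means that the death gene's ratio was the higher. Bax minus Bcl2 was 0.04 in pair 1 and -0.06 in pair 2, giving a mean of -0.01 ± 0.07. Bak1 minus Mcl1 was -0.19 and 0.02, with a mean of -0.08 ± 0.15, since both genes were lower. Bak1 minus Bcl2l1 was -0.24 in pair 1 and -0.37 in pair 2, below 0 on all 4 arrays, with a mean of -0.30 ± 0.09, though this difference takes the Bcl2l1 probe of the name rule and not the Bcl-X probe above. Bcl2l11 minus Mcl1 was -0.02 and 0.30, with a mean of 0.14 ± 0.23. Bcl2l11 minus Bcl2l1 and Bad minus Bcl2l1 had means of -0.08 ± 0.01 and -0.03 ± 0.05. No test was made of these differences. Apart from Bak1 minus Bcl2l1, each of the 6 differences had both signs among the 4 arrays.

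The other genes of the pathway were read from 3 lists, and none of their genes passed the test in either direction. Of 16 listed BCL2 family genes outside the 10, 11 were tested, with 2 lower and 3 higher on all 4 arrays, against 12.6% and 14.2% of all probes. Their median log2 ratio was 0.10, with 0.04 in each pair. The genes with the largest values among those of 1 sign on all 4 arrays were Bnip3, an atypical member linked to hypoxia and mitophagy, at 0.44 ± 0.30 (limma adjusted p = 0.535) and Pmaip1, which encodes the MCL1-binding protein NOXA, at -0.34 ± 0.14 (limma adjusted p = 0.506). Bbc3, which encodes the p53 target PUMA, had a mean of 0.15 ± 0.19, and Bcl2l10, a survival-type member, had 0.10 ± 0.05. Pmaip1 and the brighter probe of Mcl1, its partner's gene, had values below 0 in both pairs. The other Mcl1 probe had -0.18 in pair 1 and 0.012 in pair 2.

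Of 21 genes of the mitochondrial death pathway, 17 were tested, with 3 lower and 1 higher on all 4 arrays, beside the same shares of all probes. Their median log2 ratio was -0.07, but the pairs went opposite ways, with 0.08 in pair 1 and -0.13 in pair 2. Casp9, the initiator caspase of the apoptosome, had a mean log2 ratio of -0.44 ± 0.34, at -0.68 in pair 1 and -0.20 in pair 2 (limma adjusted p = 0.542). Birc5, which encodes survivin, a protein of dividing cells, had 0.27 ± 0.21. Vdac1, an outer membrane channel, had -0.25 ± 0.25, with -0.50 from its other probe, and Birc3, an inhibitor of apoptosis, had -0.12 ± 0.14.

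Of 29 regulators of BCL2 family genes and proteins, 27 were tested, with 2 lower and 1 higher on all 4 arrays, beside the same shares of all probes, and a median of -0.05. The kinase gene Rps6ka1, which encodes RSK1, a kinase that phosphorylates BAD, had the largest mean in size of the 3 lists. Its log2 ratio was -1.18 and -0.95 in pair 1 and -1.11 and -0.73 in pair 2, giving a mean of -0.99 ± 0.10 (limma adjusted p = 0.453). Akt2, another kinase gene of the route to BAD, had -0.08 ± 0.10, and Pim1, a survival kinase gene, had 0.04 ± 0.02. The Bad gene itself differed by -0.06 from its brighter probe, and phosphorylation was not measured.

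**Figure D4:**
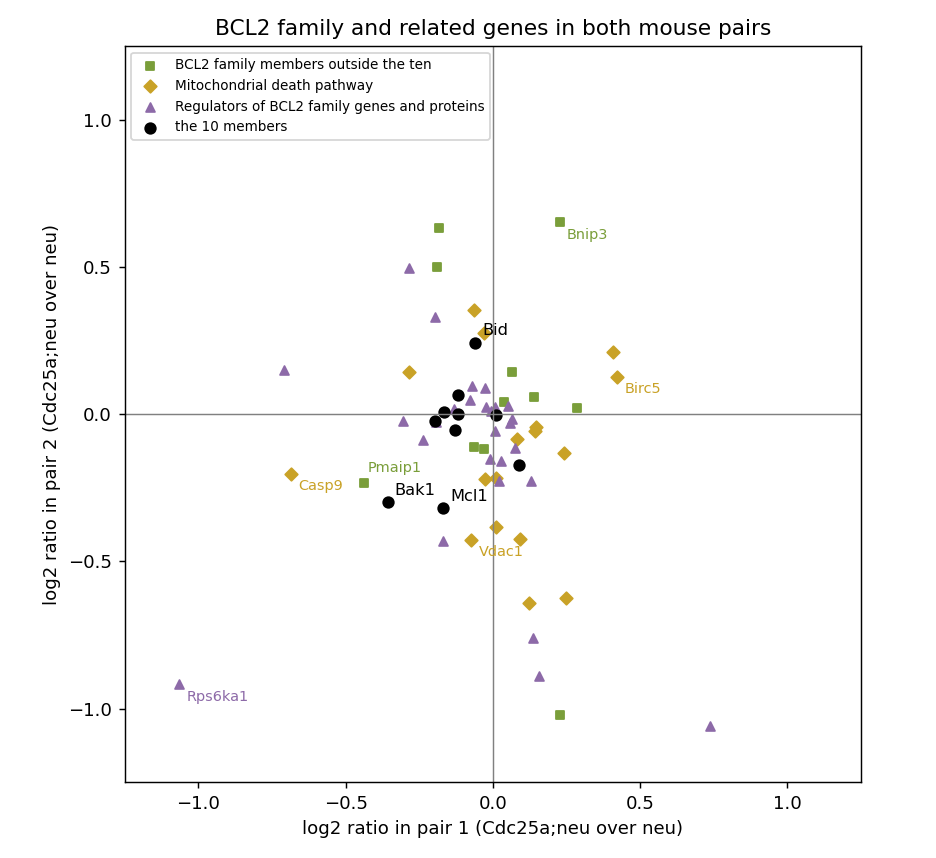
Log2 ratio of Cdc25a;neu over neu in pair 1 (x axis) and pair 2 (y axis) for the 10 members and for the tested genes of the other 3 lists, with the genes furthest from 0 of 1 sign on all 4 arrays labelled. Bak1 lies at -0.36 and -0.30, and of the labelled genes Rps6ka1 lies furthest below 0 in both pairs.

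The chromosomal surroundings of the members were read from the 20 named and measured genes nearest in RefSeq's gene order, 10 on each side. The median log2 ratio of Bak1's neighbours on chromosome 17 was -0.01 in pair 1 and 0.02 in pair 2, against -0.36 and -0.30 for Bak1. For Mcl1 on chromosome 3 the neighbours' medians were -0.04 and 0.0016, against -0.17 and -0.32 for Mcl1. Bmf on chromosome 2 had the neighbours furthest from 0 in pair 2, at -0.11. The count of neighbours lower on all 4 arrays was 5 of 20 for Bcl2, Mcl1 and Bmf and 1 to 4 for the other members, against 12.6% of all probes. The medians around the other 7 members lay between -0.07 and 0.05 in both pairs.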

How the data were processed

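RNA of mammary tumours was extracted with the Agilent mini-kit, amplified linearly with oligo-dT priming and given Cy3 or Cy5 label, per the labels' protocols. The authors deposited scanner output with intensity values from Agilent Feature Extraction, 7.5.1 per the file headers and 7.2 per the submitters' processing notes, with log10 ratios of red over green made by the authors' software. The authors' deposited value table follows the natural log of the red over green ratio (slopes of 2.27 to 2.29 against the scanner's log10 ratio). Its values were therefore turned to Cdc25a;neu over neu here. Its centring stays unknown, and its column medians were 0.0209, 0.0007, 0.0209 and 0.0078. It served as an alternative.

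Mean foreground and median background intensities were corrected by normexp (offset 50) and normalized by loess within arrays in limma 3.58.1 (R 4.3.3), with control spots at weight 0; controls and outlier spots were left out and spots of a probe averaged. Probes well above background in 1 channel or more on 2 or more of the 4 arrays were kept (37177, of which 37174 gave a value in both pairs). Ratios were turned to Cdc25a;neu over neu, averaged within pairs and tested with limma (n = 2 pairs, adjusted p under 0.05). For a gene with several kept probes, the brightest stands for it. Tumour signals came from Aquantile scaling between arrays. The test was tested on simulated data. The number of pairs limits the precision. All members are named; of each other list, the 4 genes furthest from 0 with 1 sign on all 4 arrays. The members and lists were chosen with earlier results of these data known, so no list was tested as a set.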

Additional observations from a re-analysis of the deposited data

How the results depend on the processing

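The alternatives covered background, dye normalization, filter, the deposited table, probe choice, separate channels and arrays or pairs left out. The median log2 ratio of the 10 genes stayed below 0 in the 14 for which it was computed, from -0.12 to -0.01. Bak1 stayed below 0 in all 17 (-0.46 to -0.23), and so did Mcl1 (-0.39 to -0.10), Bax (-0.14 to -0.030) and, in the 16 that kept it, Bcl2l11 (-0.43 to -0.022); Bad ranged from -0.24 to 0.0067; no member passed in any that allowed a test (a single pair does not), with limma adjusted p of 0.373 or more for Bak1. Median centring in place of loess gave 1 member probe lower on all 4 arrays in place of 2. Of all tested probes 3.48% were then lower on all 4, in place of 12.6%. Median centring also called 1109 probes in place of 0, none of them a member's. It turned Bcl2l1 to 0.048 and Bik to 0.0056. The members' 95% intervals were then nearly equally wide, such as -0.33 to 0.27 for Bcl2 and -0.24 to 0.36 for Bmf. With loess these ran from -0.31 to 0.15 and from -0.15 to 0.15. With median centring the test thus used nearly the same spread for each member, whatever its own pairs gave. The cause of the 1109 calls was not tested. No other alternative called a probe. With arrays or pairs left out, 2 to 8 of 13 member probes were lower on all remaining arrays and 0 to 3 were higher. This is partly since fewer arrays must share a sign. Over all tested probes, 16.2% to 31.9% were then lower and 18.2% to 34.3% higher. The count of 8 came from pair 1 alone, where 28.4% of all tested probes were lower on both arrays. Leaving out arrays or pairs also turned 6 members, whose log2 ratios ranged from -0.17 to 0.0082 for Bcl2, -0.12 to 0.066 for Bcl2l1, -0.059 to 0.24 for Bid, -0.13 to 0.0067 for Bad, -0.17 to 0.090 for Bik and -0.044 to 0.049 for Bmf.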

Other observations

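Other members of the family differed in opposite directions in the 2 pairs; they were picked after their values were seen. Bcl2l2, which encodes the survival protein BCL-W, had log2 ratios of 0.30 and 0.16 in pair 1 and -1.28 and -0.76 in pair 2. Bok, a relative of Bax and Bak1, had -0.18 and -0.20 in pair 1 and 0.31 and 0.69 in pair 2. Bcl2a1b, a survival gene of blood cells, had -0.26 and -0.11 in pair 1 and 0.50 and 0.77 in pair 2, and the median of the macrophage markers was -0.38 in pair 1 and 0.52 in pair 2; its part in the Bcl2a1b values was not tested. Stat5a, which encodes a prolactin-responsive transcription factor of the mammary gland, had 0.95 and 0.53 in pair 1 and -1.29 and -0.83 in pair 2. In each of these genes the dye-swapped arrays of a pair shared their sign, so the mean over pairs does not describe either pair.

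The Bcl-X probe outside the name rule, chosen after its values were seen, also had both Cdc25a;neu tumours below both neu tumours. The Cdc25a;neu tumours were at 9.03 and 8.81 and the neu tumours at 9.32 and 9.18. Of all tested probes, 11.4% did the same.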
